A study of Mus musculus with 6 samples.

Results

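Genes for mechanically gated and acid-gated channels and their modulators were examined in mouse dorsal root ganglia (DRG) after deletion of Meis1. The 7 genes were Piezo1, Piezo2, Asic1, Asic2, Asic3, Stoml3 and Tmem150c, chosen by name from the array annotation. These are 7 of the 18193 genes that the arrays read by a probe set listed for that gene alone, and they were read by 10 of the 45037 probe sets tested. A probe set is a group of short probes against the transcripts of a gene, and its intensity rises with their amount. Each gene was followed by its brightest probe set, the one with the highest mean log2 intensity over the 6 arrays. None of the 7 genes passed the limma test between Meis1cko and control DRG at an adjusted p below 0.05, which 0.0155% of all probe sets did. The intensities of both genotypes overlapped for all 7 genes. Most probe sets overlapped too, as only 6.64% of all probe sets had no overlap in either direction.

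The study set Meis1cko mice at P60 against control mice of the same age. Meis1cko mice combined a floxed Meis1 allele with Nav1.8-Cre, which deletes exon 8, a piece of the DNA-binding homeodomain. The Cre is a transgene under a Nav1.8 promoter fragment, and the paper describes it as selective for most nociceptive neurons. Whether the allele was also deleted in other cells of the ganglion was not measured here. The control mice are labelled only as Control, with no allele named. Total RNA came from cervical, thoracic and lumbar DRG of 3 mice per genotype, with 1 array per mouse. The ganglion was taken whole, so fewer cells of a type and less RNA per cell cannot be told apart.

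Piezo1 and Piezo2 are very large cation channels that open when the membrane is stretched or indented. Piezo2 is the main transducer of light touch and proprioception in DRG neurons, while Piezo1 is best known from endothelial cells, red blood cells and other non-neuronal cells. Acid-sensing ion channels (ASICs) are sodium channels of the ENaC/degenerin family that open when the extracellular pH falls, and Asic3 is prominent in sensory neurons. Stoml3 and Tmem150c (also called Tentonin 3) are membrane proteins that alter mechanically gated currents.

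The 250 bases before the annotated start were read for 6 of the genes, in 9 windows from RefSeq on build GRCm38.p6. The letters TGACAG, the core bound by MEIS proteins, were searched on both strands, where the other strand reads CTGTCA. Only the Asic3 window held them among these 9 windows. It lies at chr5:24413201-24413450 on the plus strand, and the match begins 199 bases before the start. It is shown because Asic3 is the one gene of the 6 read with the letters of this core before its start, and the capitals mark the match.
Asic3: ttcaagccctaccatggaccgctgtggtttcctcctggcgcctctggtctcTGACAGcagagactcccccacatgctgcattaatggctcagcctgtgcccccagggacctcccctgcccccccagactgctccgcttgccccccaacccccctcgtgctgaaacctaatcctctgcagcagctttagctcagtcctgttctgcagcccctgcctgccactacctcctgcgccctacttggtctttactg
The same letters stood in 5210 of 32851 promoter windows of this length, or 15.9%. The match is a description of the sequence, not a binding site. The intensities of Asic3 are given with those of the other ASICs.

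Meis1 itself was read first. At P60 the paper detected it in a small group of large neurons and no longer in nociceptors. It showed the deletion in nociceptors at earlier stages, and found less Meis1 RNA in mutant DRG by RT-PCR. The values here are of whole DRG at P60, on 3 probe sets of Meis1. The brightest had intensities of 66.0, 72.1 and 64.2 in Meis1cko DRG and of 110, 144 and 90.2 in control DRG. Every Meis1cko array was below every control array, with a log2 fold change of -0.74 (SE 0.18, unadjusted p = 0.00434 and adjusted p = 0.999975 in limma). The other 2 Meis1 probe sets, both dimmer, did not show this difference, with means of 34.9 in Meis1cko and 32.0 in control DRG on one (log2 fold change 0.13) and of 18.4 in Meis1cko and 20.2 in control DRG on the other (log2 fold change -0.16). Whether any of the 3 reads the deleted exon was not analysed here. Over all probe sets, limma's moderated test with Benjamini-Hochberg adjustment called 7 of 45037, or 0.0155%, at an adjusted p below 0.05. With the replicate number as a block it called 37. Both replicate 3 arrays stood apart from the other 4 on the first principal component, which held 59.2% of the variance. Their log2 ratio of the 3′ to the 5′ probe set of Actb, a sign of RNA quality or labelling, averaged 0.431 against 1.38 on the other arrays. By genotype this ratio averaged 1.14 in Meis1cko and 0.984 in control DRG. The pan-neuronal markers were all measured (7 of 7, each at or above the median intensity), with a median log2 fold change of 0.04. No marker of the 13 lists of cell types was called. Summed intensities did not overlap for fibroblast markers, at 5529 to 7284 in Meis1cko and 7822 to 12351 in control DRG, or for markers of C-fibre low-threshold mechanoreceptors, at 2344 to 2668 in Meis1cko and 2917 to 3440 in control DRG. Mural cell markers had log2 fold changes above 0 for 5 of 5 (median 0.29, with overlapping sums of 4566 to 8049 in Meis1cko and 4131 to 6021 in control DRG), and macrophage markers for 0 of 5 (median -0.39, with overlapping sums of 486 to 901 in Meis1cko and 707 to 1221 in control DRG). The part of these differences in the values below was not tested.

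**Figure D1:**
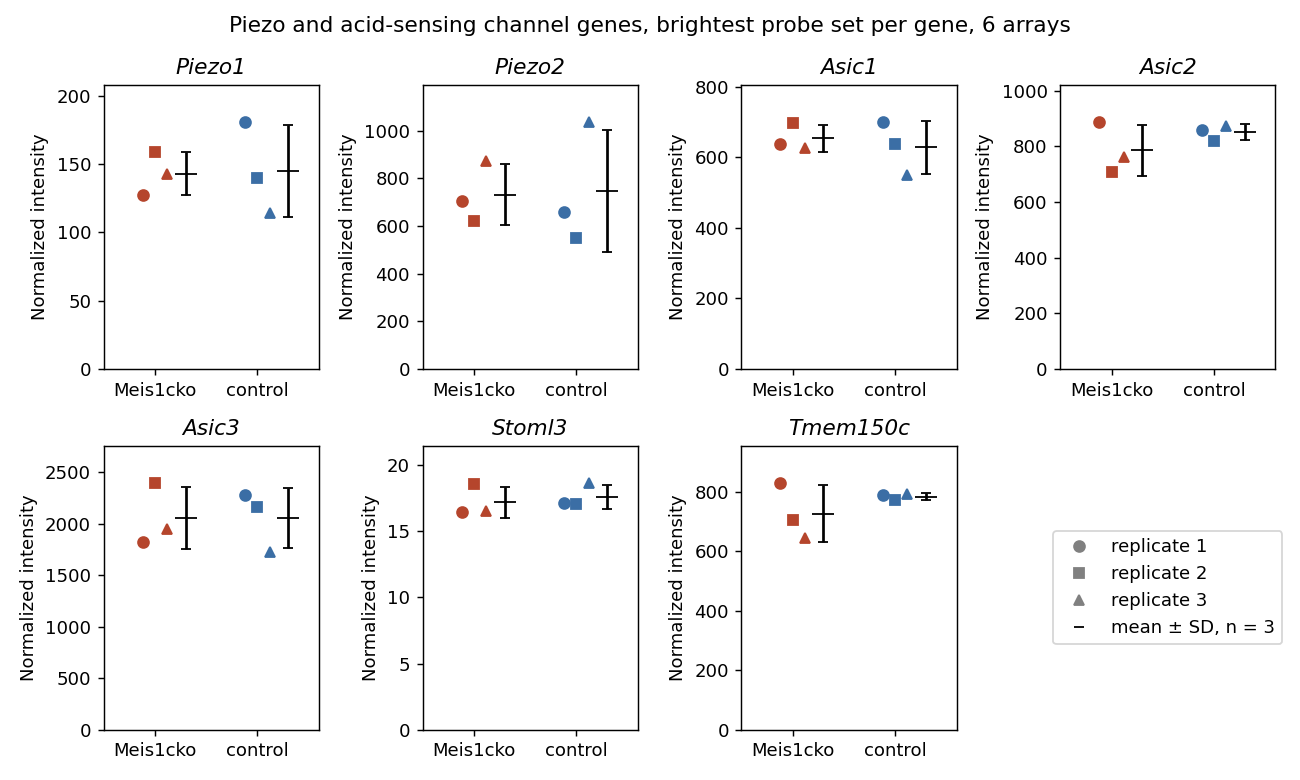
Normalized intensity of the brightest probe set of each of the 7 genes on linear axes that start at 0, with 1 point per mouse, the 3 Meis1cko mice (red) to the left of the 3 control mice (blue), and the mean with its SD beside each group. The points of both genotypes overlap for all 7 genes, and those of Stoml3 lie near 17.

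Piezo1 had intensities of 127, 159 and 143 in Meis1cko DRG and of 181, 140 and 114 in control DRG. The Meis1cko values lay inside the range of the controls. The means were 143 ± 15.7 in Meis1cko and 145 ± 33.8 in control DRG (SD, n = 3 mice each). This came to a log2 fold change of 0.0028 (SE 0.19, unadjusted p = 0.988 in limma), with a 95% interval of the fold change of 0.737 to 1.36. The adjusted p was 0.999975 for all 10 probe sets of the 7 genes. Between arrays of the same replicate number, which the labels do not name as pairs, Piezo1 differed by -0.51, 0.19 and 0.33 (log2, Meis1cko minus control). Without both replicate 3 arrays the log2 fold change of Piezo1 turned to -0.16.

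Piezo2 had intensities of 705, 620 and 871 in Meis1cko DRG and of 657, 551 and 1037 in control DRG. In each genotype replicate 3 was the highest. Replicate 3 exceeded the mean of replicates 1 and 2 by 0.40 in Meis1cko and by 0.78 in control DRG on the log2 scale. The means were 732 ± 128 in Meis1cko and 748 ± 255 in control DRG (SD, n = 3 mice each). In limma the log2 fold change was 0.0072 (SE 0.25, unadjusted p = 0.978), and the 95% interval of the fold change was 0.670 to 1.51. This was the widest interval of the 7 genes and the only one to reach beyond a 1.5-fold difference. Without both replicate 3 arrays the log2 fold change was 0.14.

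A second, dimmer probe set of Piezo2 gave another picture. It had intensities of 256, 206 and 206 in Meis1cko DRG and of 174, 203.0 and 184 in control DRG. All 3 Meis1cko values were above the controls, although the lowest of them, 205.5, was close to the highest control. The means were 223 ± 29.3 in Meis1cko and 187 ± 14.9 in control DRG (SD, n = 3 mice each), so that the mean in Meis1cko was 1.19 times that in control DRG. In limma this was a log2 difference of 0.25 (SE 0.14, 95% interval -0.08 to 0.57, unadjusted p = 0.117). Of all probe sets tested, 3.21% had every Meis1cko array above every control array. The difference stayed above 0 under each of its 18 alternatives (0.10 to 0.31). Some of these, such as the replicate block, alter only the p and cannot change the fold change. The rest reuse the same 6 arrays, so the count is no separate support for a difference. In limma with the replicate block the adjusted p of this probe set was 0.770. The 2 probe sets of Piezo2 did not move together over the 6 arrays (Pearson's r = -0.169).

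Among the ASIC subunits, Asic1 forms channels with high proton sensitivity. It had intensities of 639, 698 and 627 in Meis1cko DRG and of 701, 637 and 550.0 in control DRG. The Meis1cko values lay within the control range, with means of 654 ± 38.1 in Meis1cko and 629 ± 75.6 in control DRG (SD, n = 3 mice each). The difference in limma was 0.06 on the log2 scale (SE 0.13, unadjusted p = 0.653), and the 95% interval of the fold change was 0.841 to 1.30.

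Asic2 forms mixed channels with the other ASIC subunits and alters their gating. It had intensities of 888, 708 and 761 in Meis1cko DRG and of 860, 821 and 874 in control DRG. Replicates 2 and 3 of Meis1cko were below all controls, and replicate 1 was above them. The means were 786 ± 92.4 in Meis1cko and 852 ± 27.5 in control DRG (SD, n = 3 mice each). Asic2 thus had a log2 fold change of -0.12 (SE 0.13, unadjusted p = 0.369 in limma), with a 95% interval of the fold change of 0.747 to 1.13.

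Asic3, whose channels carry sustained as well as transient acid-evoked currents, had intensities of 1816, 2396 and 1949 in Meis1cko DRG and of 2281, 2156 and 1723 in control DRG. The order of the 6 arrays mixed both genotypes. The means were 2054 ± 304 in Meis1cko and 2053 ± 293 in control DRG (SD, n = 3 mice each). For Asic3 limma gave a log2 fold change of 0.00060 (SE 0.16, unadjusted p = 0.997), with a 95% interval of the fold change of 0.766 to 1.31.

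Stoml3, a stomatin-domain protein that sensitizes mechanically gated channels, was near the dim end of the arrays. It had intensities of 16.5, 18.6 and 16.5 in Meis1cko DRG and of 17.1, 17.0 and 18.7 in control DRG. All 6 values were below the 25th percentile of their array, which ran from 20.8 to 22.6. A detection call was not used here, so these values do not separate a low level from background, and the log2 fold change of -0.04 (SE 0.12) cannot be read as a difference in Stoml3 RNA. Its second probe set was dimmer still, at 7.70 to 8.19 in Meis1cko and 7.98 to 11.6 in control DRG.

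Tmem150c is a membrane protein tied to slowly adapting mechanical currents. It had intensities of 830, 703 and 643 in Meis1cko DRG and of 789, 770.1 and 791 in control DRG. As with Asic2, replicates 2 and 3 of Meis1cko were below all controls and replicate 1 was above them. The means were 725 ± 95.5 in Meis1cko and 783 ± 11.3 in control DRG (SD, n = 3 mice each). Tmem150c had a log2 fold change of -0.12 (SE 0.13, unadjusted p = 0.395 in limma), with a 95% interval of the fold change of 0.744 to 1.14. Its dimmer probe set, at 27.1 to 35.2 in Meis1cko and 27.8 to 31.1 in control DRG, had a log2 fold change of 0.06 (SE 0.14).

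Over the 7 genes the log2 fold changes ran from -0.12 to 0.06 with a median of 0.00060, beside a median of -0.01 over all probe sets. No gene was called by limma, against 0.0155% of all probe sets, and none had an unadjusted p below 0.05. None reached the threshold of the study's methods, a fold change above 1.5 with p below 0.05 in the methods' t-test, which 0.411% of all probe sets did. The groups overlapped for 7 of 7 genes. This sets them apart little, as only 6.64% of all probe sets had no overlap in either direction. The 95% intervals of 6 of the 7 genes lay inside a 1.5-fold difference both ways. Since Stoml3 was at the dim end, this bounds 5 genes with measurable signal, Piezo1, Asic1, Asic2, Asic3 and Tmem150c. The bounds hold for RNA of whole cervical, thoracic and lumbar DRG. A larger difference in part of the neurons or at some of these levels was not tested. Differences within these intervals remain possible with 3 mice per genotype, so the overlap does not show that the levels were equal.

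**Figure D2:**
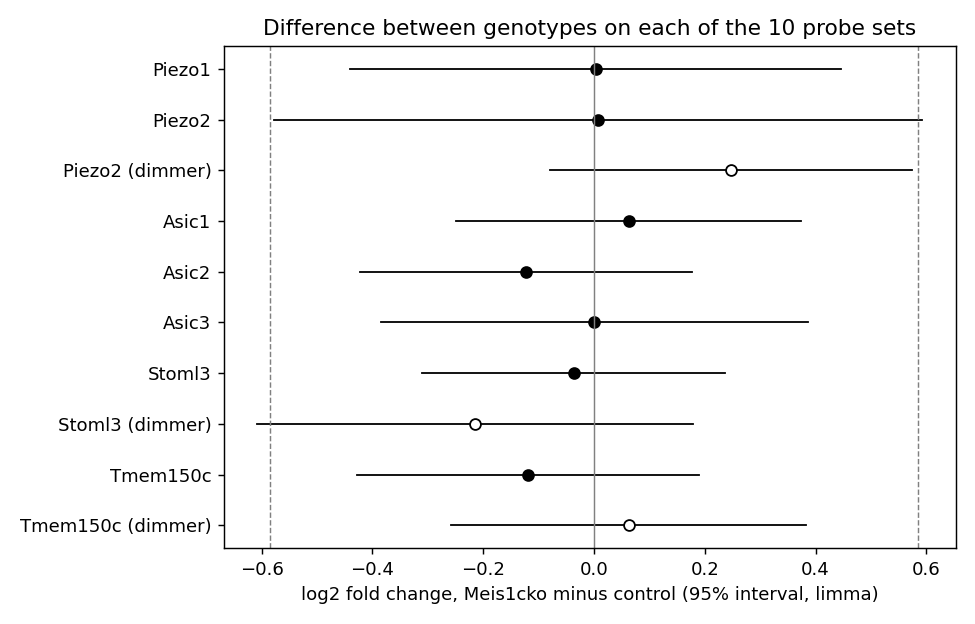
Log2 fold change, Meis1cko minus control, of the 10 probe sets with 95% intervals from limma (n = 3 mice each), with dashed lines at a 1.5-fold difference. Filled points are the brightest probe set of a gene and open points the dimmer ones. All intervals cover 0, and among the brightest probe sets only that of Piezo2 passes a dashed line.

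The genes also had different spreads between arrays of one genotype. The pooled SD of log2 intensity was 0.376 for Piezo2 and 0.262 for Piezo1, above 0.213, the median SD of the probe sets on the brighter side of the median intensity. For Piezo2 this spread includes the higher values of both replicate 3 arrays, a shift in the same direction in both genotypes. The SD was 0.211 for Asic3, 0.137 for Asic1, 0.133 for Tmem150c and 0.123 for Asic2.

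Over the 6 arrays Piezo1, Asic1 and Asic3 went up and down together, with Pearson's r of 0.908 for Piezo1 with Asic1, 0.882 for Piezo1 with Asic3 and 0.874 for Asic1 with Asic3. All 3 had their lowest value on control replicate 3. On their brightest probe sets Asic2 and Tmem150c shared another profile (r = 0.830, Spearman's rho = 0.943). The dimmer probe set of Tmem150c did not follow the brighter probe set of that gene (r = -0.664). Piezo2 had r of -0.768 with Asic1, -0.767 with Asic3 and -0.589 with Piezo1. Without both replicate 3 arrays these were 0.156 with Asic1, -0.496 with Asic3 and -0.040 with Piezo1, so the opposite course of Piezo2 rests largely on those arrays. Over the 4 arrays left, r was 0.911 for Piezo1 with Asic1, 0.805 for Piezo1 with Asic3 and 0.779 for Asic1 with Asic3. For Asic2 with Tmem150c it was 0.983. Stoml3, at the dim end, reached -0.970 with Asic2 and -0.979 with Tmem150c over the same 4 arrays. So values of this size on 4 arrays do not show a lasting shared profile. These are descriptions over 6 arrays of both genotypes, in which the genes share each array's RNA, labelling and scan.

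**Figure D3:**
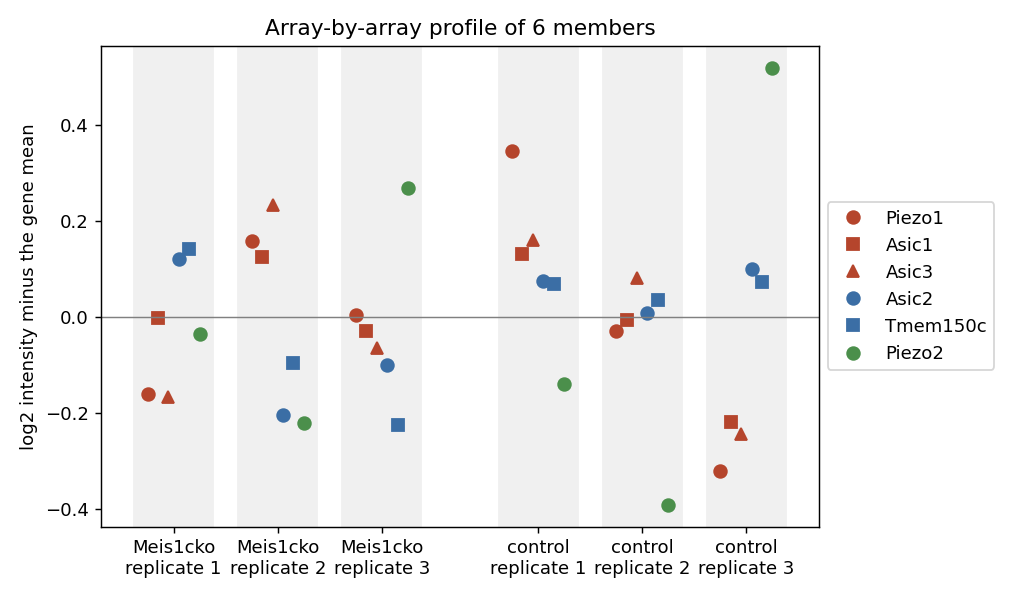
Log2 intensity of 6 of the genes on each array, minus the mean of that gene over the 6 arrays, with Meis1cko arrays to the left of control arrays. Piezo1, Asic1 and Asic3 (red) are lowest on control replicate 3, Asic2 and Tmem150c (blue) lie close together on each array, and Piezo2 (green) has its highest points on both replicate 3 arrays.

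Many other genes had profiles like these. A search of 12177 genes over 6 arrays finds high correlations without any link, and the number expected in that way was not computed. Among 12177 other genes at or above the median intensity, those most like Piezo1 over the 6 arrays were Ap3b1 and Spaca3 (r = 0.989 each). Those most like Piezo2 were Enpp5 (r = 0.996) and Usp8 (r = 0.994). For Asic1 they were Llgl1 (r = 0.989) and Tmem130 (r = 0.986), for Asic2 St3gal6 (r = 0.990) and Mitd1 (r = 0.988), and for Asic3 Nbr1 (r = 0.992) and Frmd5 (r = 0.990). For Tmem150c they were Smr2 (r = 0.995) and Bcap29 (r = 0.991). A correlation above 0.9 was reached by 94 genes for Piezo1, 220 for Piezo2, 161 for Asic1, 105 for Asic2, 96 for Asic3 and 279 for Tmem150c. For Stoml3, at the dim end, the nearest genes were Atp6v1f (r = 0.978) and Rmnd5a (r = 0.952).

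The genes that work beside these channels were read from 6 lists holding 38 genes, of which 33 were measured. None was called higher and none lower, and 1 of 33 had an unadjusted p below 0.05, near the 2.32% of all probe sets that did. Their median log2 fold change was -0.07, with a range of -0.30 to 0.35, and 10 of the 33 were below the median intensity. That 1 gene was Gpr4, a proton-sensing receptor best known from endothelial cells. Gpr4 averaged 149 ± 5.25 in Meis1cko and 117 ± 16.9 in control DRG (SD, n = 3 mice each), without overlap, for a log2 fold change of 0.35 (SE 0.14, unadjusted p = 0.037 and adjusted p = 0.999975 in limma). Of all probe sets, 6.64% had no overlap in either direction. The endothelial markers, 6 of 6 measured and 0 called, had a median log2 fold change of 0.09.

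The other acid sensors had a median log2 fold change of -0.17 over 7 of 9 genes, with -0.22 for Trpv1, the capsaicin receptor, and -0.18 for Otop1, a proton channel. The other ASIC and ENaC subunits had a median of 0.02 over 5 of 5 genes, with -0.15 for Asic4, 0.18 for Scnn1b and 0.19 for Scnn1a. Among genes of the stomatin domain the median was -0.07 over 4 of 6, with 0.14 for Stom, -0.08 for Stoml2 and -0.12 for Stoml1. In the TMEM150 family, Tmem150b averaged 60.6 ± 8.61 in Meis1cko and 74.1 ± 4.84 in control DRG. Its groups did not overlap, as for 6.64% of all probe sets in either direction. The log2 fold change was -0.30 for Tmem150b (SE 0.14, unadjusted p = 0.074 in limma) and 0.15 for Tmem150a. Other mechanically gated channels had a median of -0.10 over 9 of 10 genes, with -0.28 for Kcnk10 and -0.20 for Kcnk2, both stretch-sensitive potassium channels, and -0.10 for Tmem63b. Known modulators of Piezo channels had a median of -0.05 over 6 of 6, with 0.12 for Mdfi, -0.17 for Mdfic and -0.07 for Mtmr2.

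**Figure D4:**
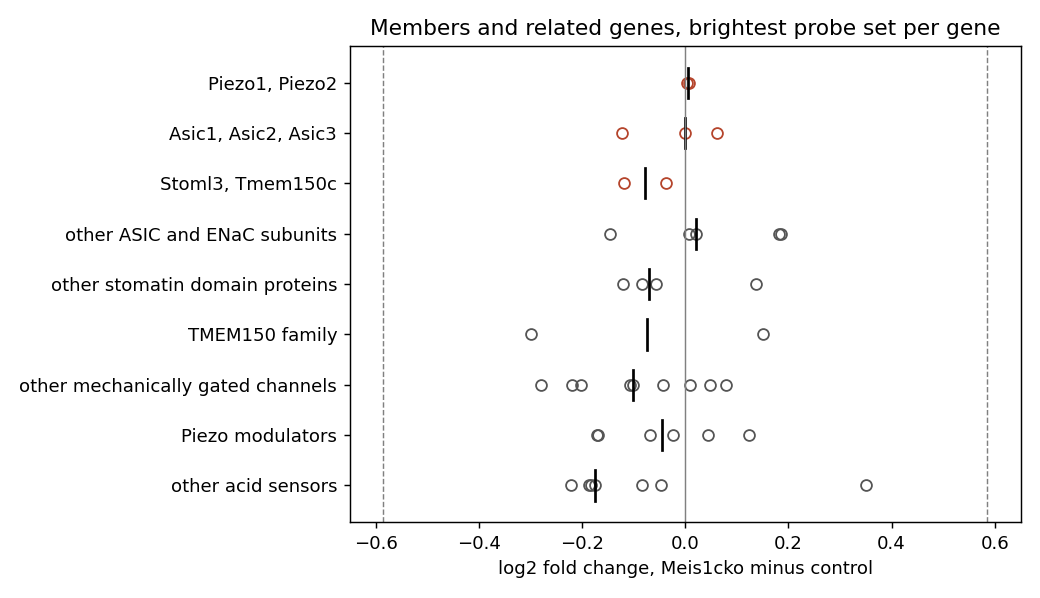
Log2 fold change, Meis1cko minus control, of the 7 genes in 3 groups by role (red) and of each measured gene in the 6 lists of related genes (grey), with 1 point per gene, a black bar at each median and dashed lines at a 1.5-fold difference. No gene was called, and the points lie between -0.30 for Tmem150b and 0.35 for Gpr4.

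Markers of the neurons that hold these channels were read beside them. Those of large myelinated neurons, 7 of 9 measured, had a median of 0.08 on the log2 scale, and nociceptor markers, 5 of 8 measured, had a median of 0.03. Within them, Ntrk3, the neurotrophin receptor of proprioceptors, averaged 876 ± 47.6 in Meis1cko and 627 ± 24.9 in control DRG (SD, n = 3 mice each), for a log2 fold change of 0.48 (SE 0.11, unadjusted p = 0.0032 in limma). Scn10a, which codes for Nav1.8, averaged 1052 ± 141 in Meis1cko and 751 ± 53.6 in control DRG (SD, n = 3 mice each), also with a log2 fold change of 0.48 (SE 0.14, unadjusted p = 0.0097 in limma). Each had the smallest p of its list. Neither overlapped between genotypes, which held for 6.64% of all probe sets in either direction. Both had an adjusted p of 0.999975 in limma. The Cre transgene of Meis1cko mice carries a Nav1.8 promoter fragment, and whether it adds to the Scn10a value was not tested. C-fibre low-threshold mechanoreceptor markers had a median of -0.29 over 3 of 4. None of these markers was called.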

How the data were processed

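RNA of whole DRG from 6 mice was hybridized to Affymetrix mouse genome arrays, and the deposited values are intensities on a linear scale. The authors read the images with GeneChip Command Console and analysed them in GeneSpring, and how probes were summarised and normalized is not given in the sources used here. Of 45101 probe sets, 64 controls were left out. Probe sets with 1 annotated gene numbered 34945, with several 932 and with none 9160. Intensities were taken to log2 with a floor of 1 and tested with limma 3.58.1 in R 4.3.3 (lmFit, eBayes), adjusted by Benjamini-Hochberg over 45037 probe sets. Same-numbered arrays deviated together (r = 0.424, 0.535 and 0.766). So did Meis1cko replicate 1 with control replicate 2 (r = 0.337) and Meis1cko replicate 2 with control replicate 1 (r = 0.319). Deviations were taken from the mean of each genotype, so the shared shift of both replicate 3 arrays enters all of these values. They do not show that the mice were paired. The labels name no pairs, so the main fit was unpaired and the replicate number was a block only in an alternative. The labels name Trizol for extraction and the methods a column kit. All probe sets of the 7 genes were named, with Meis1, the 3 genes of smallest p in each related list, and the 2 genes most correlated with each member. The genes and lists were chosen with earlier results of these data known. Alternatives were quantile normalization, offsets of 16 and 50, centring, filters on dim probe sets, an intensity trend, array weights, the methods' t-test, the replicate block and leaving out arrays. The number of arrays limits the precision.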

Additional observations from a re-analysis of the deposited data

How the results depend on the processing

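None of the 7 genes was called by limma or the methods' t-test under any alternative that was run. Before adjustment, 0 of 7 were below 0.05 in the methods' t-test and with the replicate block, and 1 of 7 with array weights (Asic2, 0.032), a fit in which 15.5% of all probe sets were. Those weights were 7.55 for Meis1cko replicate 2 and 0.406 and 0.341 for Meis1cko replicates 1 and 3, so that fit rests mostly on 1 Meis1cko array. The smallest adjusted p, 0.278, was that of Asic2 with array weights. The 131 alternative values of the 7 log2 fold changes ran from -0.22 to 0.27, and 16 of them changed sign. Many of the 131 could not do so, because the filters, the intensity trend, the methods' t-test and the replicate block leave a fold change as it is. With an offset of 50, Piezo1 was at -0.0017. Without both replicate 3 arrays, Piezo1 was at -0.16, Asic1 at -0.00077, Asic3 at -0.088 and Stoml3 at 0.033, and with array weights Stoml3 was at 0.089. Leaving out 1 array at a time gave -0.16 to 0.18 for Piezo1, -0.19 to 0.27 for Piezo2, -0.031 to 0.14 for Asic1, -0.21 to -0.050 for Asic2, -0.12 to 0.084 for Asic3, -0.093 to 0.0064 for Stoml3, -0.22 to -0.036 for Tmem150c and -0.029 to 0.16 for the dimmer probe set of Tmem150c. The number of members whose groups did not overlap was 0 to 2 in these fits. Without Meis1cko replicate 1 these were Asic2 and Tmem150c, when 18.1% of all probe sets did not overlap. Without Meis1cko replicate 2 it was Stoml3, at the dim end, when 12.51% did not.

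The 7 probe sets called over the whole array became 11 with quantile normalization, 1 with an offset of 16, 1 with an offset of 50, 4 with the filter at the median, 177 with array weights, 26 without both replicate 3 arrays and 0 with the methods' t-test after adjustment, in which 1371 had an unadjusted p below 0.05. With the replicate block, which treats same-numbered mice as paired, 37 were called, and the block changed no call of the 7 genes. Leaving out 1 array at a time gave 1 to 15, the 1 without Meis1cko replicate 1 or without control replicate 1 and the 15 without Meis1cko replicate 3. The cause of these shifts was not tested. Stoml3 gave no value under the filters on dim probe sets.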
